A study of Mus musculus with 8 samples.

Results

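The 10 genes described here are p53 target genes whose products promote apoptosis, and all 10 had probes on the arrays. They were found by matching the RefSeq accession of each mouse probe to a gene, which gave 15 probes of 35078 and 10 genes of 15597. Colon crypt epithelium came from 8 male mice on a C57BL/6 background, all carrying the humanized CYP1A genotype (hCYP1A) and fed the AIN93M diet. At 8 weeks of age, 5 mice received 1 gavage dose of PhIP at 200 mg/kg and 3 mice received PBS, and tissue was scraped 24 hours later. PhIP is a heterocyclic amine and dietary carcinogen formed in cooked meat, and the stated aim was to find genes whose expression it alters. The deposited labels do not say which cells carry the human locus. Each mouse was read on 1 single-colour array.

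The transcription factor p53 accumulates after DNA damage and switches on genes that stop the cell cycle, aid repair or trigger cell death. In the mitochondrial route to death, BH3-only proteins such as those encoded by Bbc3 and Pmaip1 release Bax to permeabilise the outer mitochondrial membrane. Cytochrome c then assembles with the Apaf1 protein into the apoptosome, which activates caspases. The other members act beside this core, as a nuclease (Aen), a brake on Akt signalling (Phlda3), membrane proteins (Perp, Ei24), a p53 cofactor (Trp53inp1) and an RNA-binding protein (Zmat3). In the intestine, cells of the crypt base are known to undergo p53-dependent apoptosis within hours of genotoxic exposure.

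One scan stood apart from the others. The array deposited with PhIP mouse 1 was scanned at a gain of 700, against 650 for the others, and the software found 21.4% of the mouse probes on it, against 53.8% to 57.1% elsewhere. Of the 9 members with a tested probe, 4 were found on that scan and 9 on every other one. The members' results are therefore given with all 8 scans and with the 7 that remain without it. The authors' matrix supplied another check. Its column for PhIP mouse 1 equalled the scan deposited with PhIP mouse 2, and its column for PhIP mouse 2 matched none of the scans. That the unmatched column is a PhIP array rests on its label alone, which was not tested. For the epithelial label, 8 of 15 colon epithelium markers were tested, and their mean log2 intensities in PBS mice with 7 scans ran from 5.42 for the stem cell marker Lgr5 to 13.61 for the keratin Krt19. Muscle and fibroblast probes were also bright there, such as Myh11 at 14.41 and Dcn at 13.74. The 8 epithelial markers had a median log2 fold change of 0.09 with 7 scans and -0.11 with 8, and limma called 0 of them in either. With 7 scans the keratins Krt8 (0.35, limma adjusted p = 0.327) and Krt18 (0.43, adjusted p = 0.219) had every PhIP array above every PBS array. Over all features 5.99% showed that pattern. Lgr5 had -0.61 with 7 scans (limma adjusted p = 0.538). The part of these markers in the members' differences was not tested.

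Of the 9 members tested, 7 stood higher on each of the 4 remaining PhIP arrays than on any PBS array once the scan of PhIP mouse 1 was left out. These were Bax, Bbc3, Aen, Phlda3, Trp53inp1, Ei24 and Zmat3. Over all 15842 features tested, 5.99% showed that pattern, and the lower pattern was shown by 2.89% of features and 0 members. Their log2 fold changes ran from 0.47 for Ei24 to 1.52 for Trp53inp1, and Phlda3 alone passed the test (limma, Benjamini-Hochberg adjusted p under 0.05). Apaf1 and Perp had overlapping groups. With all 8 scans 0 members passed, where 0.0126% of features did in the higher direction, and 3 members (Bax, Bbc3 and Phlda3) had groups that did not overlap, against 3.66% of features. For Bbc3 this rests on a spot not found on the scan of PhIP mouse 1, at 7.44 against 7.42 in PBS mouse 1. At an unadjusted limma p under 0.05 the members that were higher numbered 3 with 8 scans, against 1.45% of features, and 7 with 7 scans, against 5.81%. The median log2 fold change of the 9 members was 0.64 with 8 scans and 0.95 with 7, where all features had 0.01 and 0.03. In scraped tissue, a change in the makeup of the cells and a change in RNA per cell cannot be told apart.

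**Figure D1:**
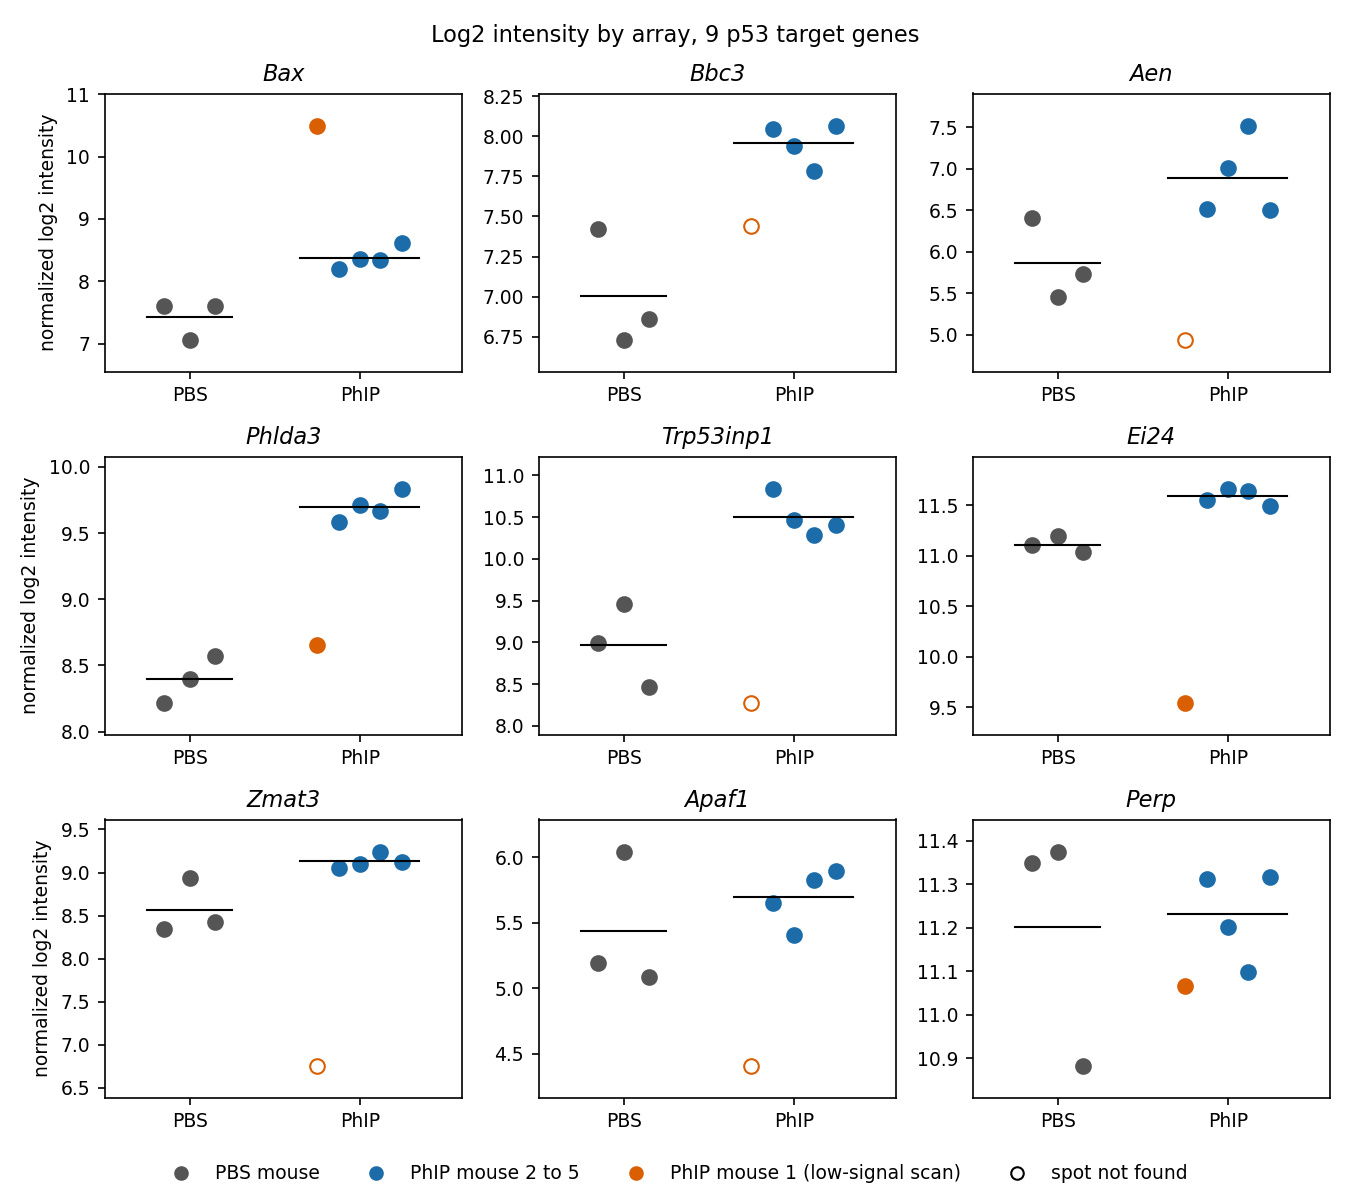
Normalized log2 intensity (vertical axes, a separate range for each gene) of the 9 tested genes on 3 PBS and 5 PhIP arrays, where each point is 1 mouse and bars are means, the PhIP bar over mice 2 to 5. For 7 genes the 4 blue points lie above all 3 grey points, and open symbols mark spots the software did not find, all of them on the scan of PhIP mouse 1.

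Among the mitochondrial effectors, Bax encodes the protein that forms pores in the outer mitochondrial membrane. Its normalized log2 intensities were 7.59, 7.06 and 7.60 in PBS mice 1 to 3. In PhIP mice 2 to 5 they were 8.20, 8.35, 8.34 and 8.61, and in PhIP mouse 1 the value was 10.50. All 5 PhIP arrays were above the PBS arrays, and the highest of them was the low-signal scan. Bax had a log2 fold change of 1.38 with 8 scans (SE 0.53, limma adjusted p = 0.837) and of 0.95 with 7 scans (SE 0.18, adjusted p = 0.226), the latter a 1.93-fold difference.

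The size of the 8-scan value for Bax rested on that scan. Before normalization the Bax spot read 306 intensity units on it, against 162 to 428 on the other 7. Over the 7338 probes found on all 8 arrays, the low-signal scan read a median of 23.0% of the other arrays' median intensity, and 2.94% of those probes had a ratio at or above that of Bax. For the other 8 tested members the ratio was 2.09% to 18.0%. Bax thus read within the range of the other arrays on that scan, while the 8 others read below theirs. Within the re-dipped arrays without the low-signal scan (PBS mice 1 and 2, PhIP mouse 3) the log2 difference for Bax was 1.02. Within the arrays not re-dipped (PBS mouse 3, PhIP mice 2, 4 and 5) it was 0.78. Re-dipping is a word in the scan names, and each of these sets rests on 1 mouse in 1 group.

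Bbc3 encodes PUMA, a BH3-only protein that binds the anti-apoptotic members of the Bcl-2 family. Its log2 intensities were 7.42, 6.73 and 6.86 in PBS mice. They were 8.04, 7.94, 7.78 and 8.07 in PhIP mice 2 to 5, and the spot was not found on the scan of PhIP mouse 1, where the normalized value was 7.44. PBS mouse 1 lay closest to the PhIP group. With 7 scans it had a log2 fold change of 0.95 (SE 0.19, limma adjusted p = 0.257), and with 8 it was 0.85 (SE 0.28, adjusted p = 0.837). Within the re-dipped and the other arrays the log2 differences were 0.86 and 1.11. A second Bbc3 probe was not found on any array, with intensities of -12 to 9 units after background subtraction, so the gene was measured by 1 probe.

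Pmaip1, which encodes the BH3-only protein Noxa, could not be measured. It had 3 probes, and none was found on any of the 8 arrays. Their background-subtracted intensities ran from -10 to 10 units, against 38 to 80 units for Apaf1, the dimmest tested member, on the 7 other scans. No fold is given for Pmaip1, since both groups were not well above background. Normalization placed one of its probes at a log2 value of 6.35 on the scan of PhIP mouse 1, although that spot was not found and read 10 units.

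Apaf1, the scaffold of the apoptosome, was dim and variable. Its log2 intensities were 5.19, 6.04 and 5.08 in PBS mice and 5.65, 5.41, 5.82 and 5.89 in PhIP mice 2 to 5. PBS mouse 2 lay above every PhIP array, so the groups overlapped. With 7 scans it had a log2 fold change of 0.26 (95% confidence interval -0.35 to 0.86, limma adjusted p = 0.788). That interval holds both 0 and values near those of Bax and Bbc3. The log2 difference was -0.21 within the re-dipped arrays and 0.71 within the others, so its sign was not the same in the 2 sets.

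**Figure D2:**
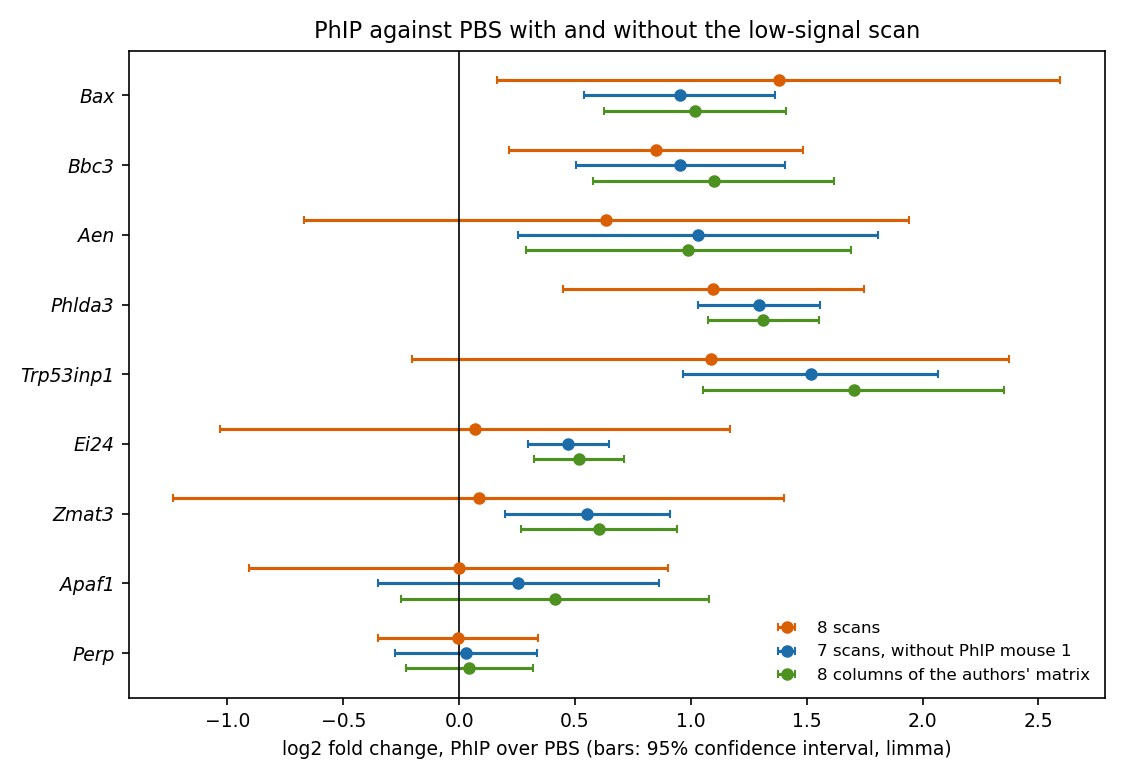
Log2 fold change of PhIP over PBS (horizontal axis) for the 9 tested genes, with 95% confidence intervals from limma, from 8 scans, from 7 scans and from the 8 columns of the authors' matrix. For Ei24 the interval runs from -1.03 to 1.17 with 8 scans and from 0.30 to 0.65 with 7, and for Perp all 3 estimates lie within 0.05 of 0.

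Phlda3 encodes a small protein with a pleckstrin homology domain that competes with Akt for membrane lipids and so represses a survival signal. It had log2 intensities of 8.22, 8.40 and 8.57 in PBS mice. In PhIP mice 2 to 5 they were 9.59, 9.71, 9.67 and 9.84, and in PhIP mouse 1, where the spot was found, 8.65. The 4 arrays of PhIP mice 2 to 5 spanned 0.25 log2 units and lay over 1 unit above the highest PBS array, while PhIP mouse 1 lay just above it. Phlda3 rose 2.45-fold with 7 scans, a log2 fold change of 1.29 (SE 0.11, limma adjusted p = 0.0202), where 0.0316% of features passed in that direction. With 8 scans it was 1.10 (SE 0.28, adjusted p = 0.837).

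The call depended on which arrays were used, while the size of the difference moved little. With 1 more array left out of the 7, the log2 fold change of Phlda3 stayed between 1.21 and 1.38, and the test was passed without PBS mouse 3 or PhIP mouse 2 and missed in the other 5 fits. Its adjusted p was then 0.0766 with PBS mouse 1 out and 0.0938 with PBS mouse 2 out, and it was 0.129, 0.103 and 0.104 with PhIP mouse 3, 4 and 5 out in turn. With re-dipping as a block on 7 scans the log2 fold change was 1.25 (limma adjusted p = 0.115). Blocking on the range of slide numbers gave 1.12. PBS mice 1 and 2 had a slide range of their own, so that value compares the PhIP arrays with PBS mouse 3 alone. Within the re-dipped arrays the log2 difference was 1.39 and within the others 1.12.

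Trp53inp1 encodes a stress-induced nuclear protein that interacts with p53 and takes part in autophagy. It had the largest log2 fold change of the members with 7 scans, 1.52 (SE 0.24, limma adjusted p = 0.172), a 2.86-fold difference. Its log2 intensities were 8.99, 9.46 and 8.47 in PBS mice and 10.84, 10.47, 10.28 and 10.41 in PhIP mice 2 to 5. The PBS mice spread over 1 log2 unit, with an SD of 0.49 (n = 3) against 0.24 (n = 4) in PhIP mice with 7 scans. On the scan of PhIP mouse 1 the spot was not found and read 33 units, against 391 to 1898 elsewhere. With 8 scans the value was 1.09 (SE 0.56, adjusted p = 0.837). The log2 difference was 1.24 within the re-dipped arrays and 2.03 within the others.

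Aen encodes a nuclease that degrades DNA and RNA in dying cells. Its brightest probe gave log2 intensities of 6.41, 5.45 and 5.73 in PBS mice and 6.51, 7.01, 7.52 and 6.50 in PhIP mice 2 to 5. PhIP mice 2 and 5 lay only just above PBS mouse 1, so the groups were apart by a small margin. With 7 scans it had a log2 fold change of 1.03 (SE 0.33, limma adjusted p = 0.433), and with 8 it was 0.64 (SE 0.57, adjusted p = 0.837). The log2 differences within the re-dipped and the other arrays were 1.09 and 1.12. The 2 other Aen probes were each found on 2 arrays, with intensities of 28 units or less, and were not tested.

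Ei24 encodes a membrane protein of the endoplasmic reticulum that was first identified as induced by etoposide. Its shift was small but its spread was smaller. Log2 intensities were 11.10, 11.20 and 11.04 in PBS mice and 11.55, 11.67, 11.64 and 11.49 in PhIP mice 2 to 5. With 7 scans the SD was 0.08 in both groups (n = 3 and n = 4), and its log2 fold change came to 0.47 (SE 0.07, limma adjusted p = 0.172), a 1.39-fold difference. The scan of PhIP mouse 1 read 126 units, against 2223 to 4076 on the others, and its normalized value of 9.55 lay below every array. With it included the value was 0.07 (SE 0.48, adjusted p = 0.96). The log2 differences within the re-dipped and the other arrays were 0.51 and 0.52.

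Zmat3 encodes a zinc finger protein that binds RNA and is also known as Wig1. Its log2 intensities were 8.35, 8.93 and 8.43 in PBS mice and 9.05, 9.10, 9.24 and 9.12 in PhIP mice 2 to 5. PBS mouse 2 stood close to the PhIP group, and the 4 PhIP arrays lay within 0.19 log2 units of each other. With 7 scans it had a log2 fold change of 0.55 (SE 0.15, limma adjusted p = 0.358). With 8 scans it was 0.08 (SE 0.57, adjusted p = 0.957). The spot was not found on the scan of PhIP mouse 1, and its normalized value there was 6.76. The log2 differences within the re-dipped and the other arrays were 0.46 and 0.70.

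Perp encodes a tetraspan membrane protein that is a p53 target in apoptosis and a component of desmosomes. It was bright on all 8 arrays, and its groups overlapped. Log2 intensities were 11.35, 11.38 and 10.88 in PBS mice and 11.07, 11.31, 11.20, 11.10 and 11.32 in PhIP mice 1 to 5. The PhIP arrays all lay within the PBS range, where PBS mouse 3 was the lowest array. With 7 scans it had a log2 fold change of 0.03 (SE 0.13, 95% confidence interval -0.28 to 0.34, limma adjusted p = 0.965). Its upper bound lies below the estimates of the 7 members named above. That bound is within the intervals of Ei24 (0.30 to 0.65), Zmat3 (0.20 to 0.91) and Aen (0.25 to 1.81), and differences between members were not tested. With 8 scans the interval of Perp was -0.35 to 0.34. The log2 difference was -0.16 within the re-dipped arrays and 0.36 within the others, so the sign of Perp depended on the set.

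**Figure D3:**
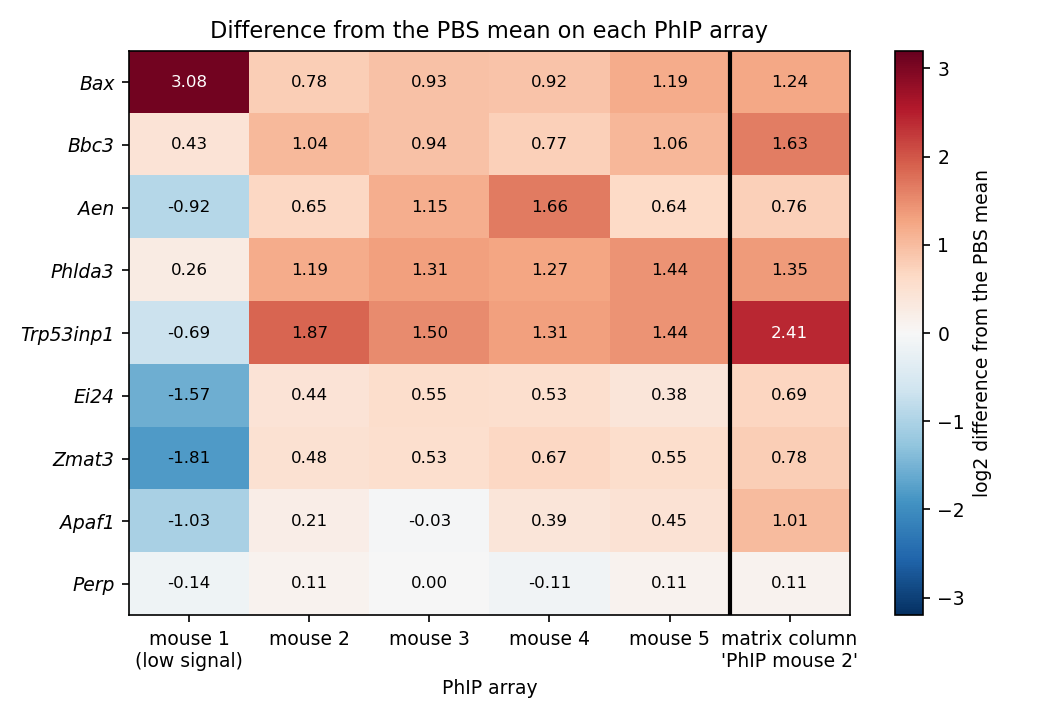
Log2 difference from the mean of the 3 PBS arrays (colour and printed value) for each tested gene on each PhIP scan, and for the authors' matrix column labelled PhIP mouse 2, normalized with its own table. The columns of mice 2 to 5 show values of 0.38 to 1.87 for the upper 7 genes, while the column of mouse 1 runs from -1.81 to 3.08.

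The matrix column that matched no scan gave a reading of the members outside the 7 scans, from an array whose group rests on its label. Turned back to intensities and normalized with the other matrix columns, it lay above all PBS arrays for 8 of the 9 members, where 31.6% of all features did. Its log2 difference from the PBS mean was 2.41 for Trp53inp1, 1.63 for Bbc3, 1.35 for Phlda3 and 1.24 for Bax. For Apaf1 it was 1.01, for Zmat3 0.78, for Aen 0.76, for Ei24 0.69 and for Perp 0.11. It was the highest PhIP column for 6 members, where it was the highest for 25.2% of features. Perp was again the member closest to PBS, and Apaf1 stood above the PBS range here, which it did on none of the PhIP scans.

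With this column in place of the low-signal scan, the comparison again had 5 arrays labelled PhIP and 3 labelled PBS. The same 7 members had groups that did not overlap, against 4.72% of features, and Phlda3 passed with a log2 fold change of 1.31 (SE 0.11, limma adjusted p = 0.00269), where 0.0694% of features passed in the higher direction. Trp53inp1 had 1.70 (SE 0.29, adjusted p = 0.103), Bax 1.02 (SE 0.17, adjusted p = 0.103) and Ei24 0.52 (SE 0.09, adjusted p = 0.103). Bbc3 had 1.10 (SE 0.23, adjusted p = 0.16). In the matrix as deposited, without further normalization, Trp53inp1 passed too, with 1.77 (limma adjusted p = 0.0433). In that fit 20 of 15849 features passed, counting both directions. These fits share 7 arrays with the scans and are no separate evidence for them.

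**Figure D4:**
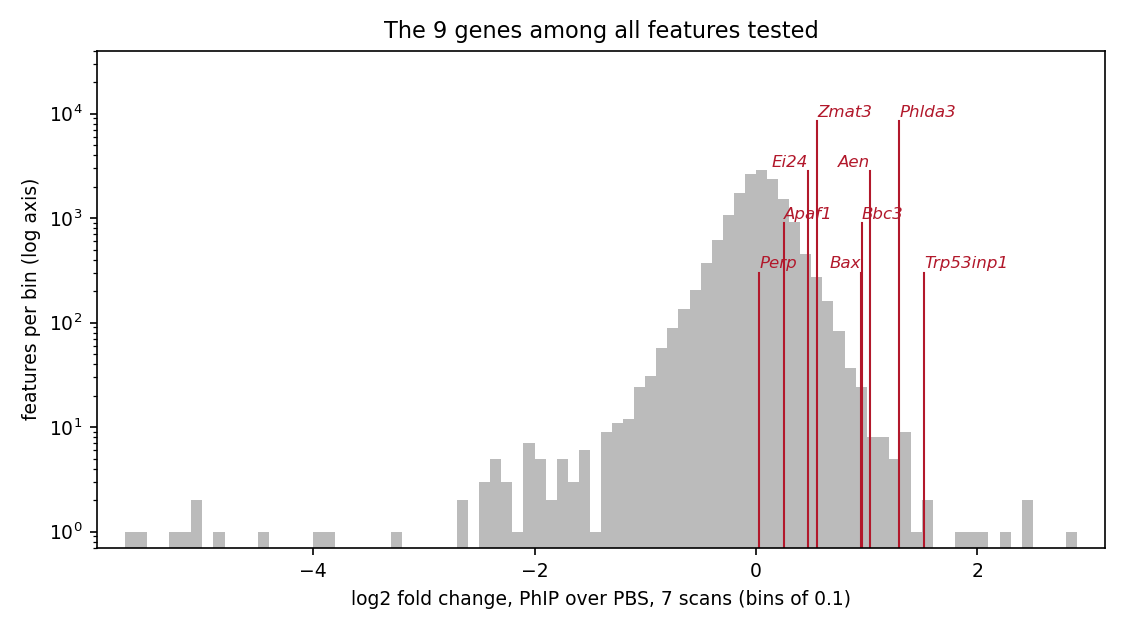
Number of features (vertical axis, log scale) in bins of log2 fold change of PhIP over PBS from 7 scans (horizontal axis), with lines at the 9 tested genes. Trp53inp1, Phlda3 and Aen lie in the right tail, with 0.0505%, 0.12% and 0.24% of features above them, and Perp lies at the centre with 50.1% above it.

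RefSeq promoter sequences are shown for Phlda3, the member that passed the test. They are also shown for those of the 6 members counted here in which a p53 motif was found, Bax, Ei24 and, as a short stretch, Aen. The 250 bases before the annotated start were searched for the 10-base p53 half-site, a palindromic consensus whose letters read alike on both strands. Promoter windows were given for 6 of the 10 members, 9 windows in all, from build GRCm38.p6. An exact half-site was in 3 of the 9, those of Bax, Ei24 and Aen, where 7.13% of 32851 promoter windows held one. A pair of half-sites at most 13 bases apart was in 0.0639% of all windows and in 0 of the 9. Capitals mark the half-site, which lay at -201 to -192 from the start in Bax, at -10 to -1 in Ei24, and at -121 to -112 from the second annotated start of Aen, 11 bases into the transcript from its first start. The windows are chr1:135765835-135766084 on the plus strand for Phlda3, chr7:45466899-45467148 on the minus strand for Bax, chr9:36797335-36797584 on the minus strand for Ei24 and chr7:78895927-78895956 on the plus strand for Aen, each printed 5′ to 3′. The window of Phlda3 has no match, nor have those of Bbc3 and Apaf1, which says only that these letters are not in it.
Phlda3: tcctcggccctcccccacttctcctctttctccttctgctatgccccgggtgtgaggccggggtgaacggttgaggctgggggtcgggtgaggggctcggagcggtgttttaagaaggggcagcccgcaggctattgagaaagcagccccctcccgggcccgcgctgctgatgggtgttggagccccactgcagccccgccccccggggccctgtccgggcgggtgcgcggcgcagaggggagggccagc
Bax: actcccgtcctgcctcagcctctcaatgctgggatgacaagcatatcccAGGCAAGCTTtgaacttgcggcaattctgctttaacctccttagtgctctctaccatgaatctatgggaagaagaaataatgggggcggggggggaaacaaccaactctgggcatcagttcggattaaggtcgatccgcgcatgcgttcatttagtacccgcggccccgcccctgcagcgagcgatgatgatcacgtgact
Ei24: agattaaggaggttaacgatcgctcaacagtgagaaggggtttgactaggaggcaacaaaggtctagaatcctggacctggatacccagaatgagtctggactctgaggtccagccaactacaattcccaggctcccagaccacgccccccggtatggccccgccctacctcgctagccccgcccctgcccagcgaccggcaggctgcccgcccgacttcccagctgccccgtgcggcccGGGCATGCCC
Aen: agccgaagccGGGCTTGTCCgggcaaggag

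The other listed p53 targets were mostly higher in PhIP mice. Of 40 listed, 34 were tested, and with 7 scans 28 log2 fold changes were above 0 and 6 below it. Over all features 8840 were above 0 and 7002 below. The median of the 34 was 0.38, against 0.03 over all features. Of these 34, 2 passed in the higher direction, against 0.0316% of features. In 14 the PhIP arrays were all above the PBS arrays, against 5.99% of features. With 8 scans 21 were above 0 and 13 below, around a median of 0.35. There 2 passed in the higher direction, against 0.0126% of features, and 7 were apart, against 3.66%. With 7 scans the cell cycle inhibitor gene Cdkn1a had 2.43 (SE 0.15, limma adjusted p = 0.00321) and the TNF receptor family gene Eda2r 2.28 (SE 0.18, adjusted p = 0.0136). Mdm2, whose product degrades p53, had 0.68 (SE 0.07, adjusted p = 0.0519) and Psrc1, which encodes a spindle protein, 1.34 (SE 0.19, adjusted p = 0.123). The PBS mean of Psrc1, 4.57 with 7 scans and 4.41 with 8, was the floor to which dim values were raised. Its fold change and the gap between its groups therefore depend on that floor. Trp53 itself had -0.05 with 7 scans (SE 0.09) and -0.72 with 8 (SE 0.78). These fold changes of Cdkn1a and Eda2r were above those of the 9 members.

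The mitochondrial apoptosis genes that are not p53 targets in this list were split between higher and lower. Of 29 listed, 25 were tested, and with 7 scans 12 lay above 0 and 13 below it, around a median of -0.01. Limma called 0 of them. At an unadjusted p under 0.05 there were 3 higher, against 5.81% of features, and 0 lower. In 4 (Endog, Birc3, Diablo and Bik) the PhIP arrays were all above the PBS arrays, against 5.99% of features. With 8 scans 12 lay above 0 and 13 below, and 3 were apart, against 3.66%. Bik, a BH3-only gene named for this count after its values were seen, had 0.33 with 7 scans (SE 0.14, limma adjusted p = 0.545). Endog, a mitochondrial nuclease, had 0.57 (SE 0.17, adjusted p = 0.41), and Birc3, an inhibitor of apoptosis, had 0.55 (SE 0.21, adjusted p = 0.505). Diablo, which relieves such inhibitors, had 0.26 (SE 0.09, adjusted p = 0.475), and Bnip3l, a mitophagy receptor whose groups overlapped, had 0.24 (SE 0.12, adjusted p = 0.592).

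Markers of other cell types were read on the same arrays, and none of the genes in these 5 lists passed with 7 or with 8 scans. With 7 scans all 8 fibroblast markers had log2 fold changes below 0 (median -0.71), and their mean log2 intensity was 10.74 to 11.49 in PBS mice and 10.16 to 10.52 in PhIP mice, so the groups did not overlap. The collagen genes Col1a1, Col1a2 and Col3a1 were the 3 of these markers with every PhIP array below every PBS array, a pattern shown by 2.89% of features. The 6 smooth muscle markers were all negative too, by less (median -0.21), with means of 11.70 to 11.78 in PBS mice and 11.32 to 11.68 in PhIP mice. Among them only Acta2 (-0.47) had every PhIP array below every PBS array. The 7 squamous epithelium markers tested of 8 were negative (median -0.44), but their means overlapped, at 7.35 to 7.97 and 6.80 to 7.73. Of 10 leukocyte markers 4 were tested, 2 on each side of 0 (median -0.03), and their means of 5.04 to 5.40 and 5.13 to 5.30 overlapped. Of 5 erythroid genes 4 were tested, and they did not move together. The globin genes Hba-a1 and Hbb-b2 had -5.64 and -4.40, each with every PhIP array below every PBS array. Alas2 had -0.24, and Slc4a1 had 0.42 with every PhIP array above every PBS array, a pattern shown by 5.99% of features. Their mean intensity was 8.90 to 9.34 in PBS mice and 5.64 to 8.56 in PhIP mice. With the unmatched matrix column in place of the low-signal scan, the groups overlapped for Hba-a1 (-4.56) but not for Hbb-b2 (-3.72). With 8 scans the medians of the fibroblast, smooth muscle, squamous, leukocyte and erythroid lists were -0.83, -0.38, -0.71, 0.20 and -1.89. Their part in the members' differences was not tested.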

How the data were processed

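Per the labels' protocols, total RNA was made into biotin-labelled cRNA and detected with Alexa-647 in 1 colour. Per the file headers, arrays were read with GenePix Pro and local background, without normalization. The deposited intensity used was each spot's linear median after subtraction of the background around it. The deposited flag, a quality score, marked spots as found, not found or bad. The authors' deposited matrix holds log2 values. In 7 columns these equal the log2 of a scan's intensity plus 1 constant per array (tolerance 0.001), are not centred per gene, and have medians of 4.88 to 5.13 (4.68 in the unmatched column). The sources used here do not say how the constants were set.

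Intensities of 35078 mouse probes, less 23 flagged bad, were quantile normalized, raised to a floor of 21.25 (percentile 5 of found values; 23.7 with 7 scans) and put on the log2 scale. Normalizing 7 scans anew moves every level up slightly, so per-array values are those of 8 scans and means with 7 scans are said to be so. A feature had to be found on at least 3 arrays, and each gene was read from its probe of highest mean, which left 15854 features with 8 scans. All 9 tested members were found on all 3 PBS arrays, so the filter did not select them by their PhIP level. The groups were compared with limma 3.58.1 (R 4.3.3) by lmFit and trended eBayes, and the 2-sided p-values were adjusted over all features by the Benjamini-Hochberg method. The code was tested on simulated data. Figures were drawn with matplotlib 3.10.9. Probes were named through a gene table of GRCm38.p6, which gave 23071 probes 1 symbol.

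The members and lists were chosen with earlier results of these data known. The rule for named genes took all 10 members, Trp53 and, of each of the 2 pathway lists, the 4 genes with the smallest p with 8 scans. Marker genes named beside their lists, and Bik, were chosen after their values were seen. Alternatives covered background, scaling, filter, floor, probe choice, blocks, the authors' values and left-out arrays. The turned-back matrix, missing not-found spots and further fits on 7 scans were added after seeing the data. The number of arrays limits the precision.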

Additional observations from a re-analysis of the deposited data

Results flagged for a closer look

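Among the 5 PhIP scans, 10 values of the members were examined for a sample far from the rest, and 6 had one. For a single value chance gives about 1 in 20, but the 10 values come from the same 5 scans and are not separate tests. In each of the 6 the far sample was the scan of PhIP mouse 1. Its log2 intensity was 10.5 for Bax, above the 8.20 to 8.61 of the other 4. It was lower than the other 4 for Phlda3 (8.653, against 9.59 to 9.84), Ei24 (9.547, against 11.49 to 11.67), Trp53inp1 (8.278, against 10.28 to 10.84) and Zmat3 (6.76, against 9.05 to 9.24). The median of the 9 members against the PBS mean was -0.6931 on it and 0.64 to 0.93 on the others.

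The matrix column of PhIP mouse 2, which matched no scan, holds values outside the scans. In it 8 of 9 members lay above every PBS array, where 31.6% of all features did, and its group rests on its label.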

How the results depend on the processing

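Members passing limma numbered 0 with 8 scans. They numbered 1 with the authors' arrays (Phlda3), 2 in the matrix as deposited, 0 to 1 with 1 scan left out and 0 to 1 with a second left out beside PhIP mouse 1. Features passing numbered 2 with 8 scans, 0 to 5 with 1 scan left out and 2 to 12 with a second left out. They numbered 0 with median scaling, the replicate block or within either set of arrays, 1 with every probe on its own, eBayes without a trend or re-dipping as a block, 14 and 20 with the authors' arrays and matrix, and 22 with slide range as a block on 7 scans, which rests on 1 PBS array. The mouse numbers shared by the groups did not pair the arrays (correlations of deviations -0.09, 0.19 and -0.12, own number highest in 1 of 3), and the replicate block left a member median of 0.29. Median scaling moved the median of all features from 0.01 to 0.12 and that of the members from 0.64 to 0.75. The members' median stayed positive in all 31 alternatives, from 0.048 in the re-dipped arrays alone to 1.04 with PBS mouse 1 left out of the 7 scans, as did Bax, Bbc3, Aen, Phlda3 and Trp53inp1.

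The other 4 changed sign; the cause was not tested. Perp (-0.004 with 8 scans) had 0.29 with median scaling, 0.32 with slide range and 0.023 with re-dipping as a block, 0.11 in the matrix, 0.044 with the authors' arrays, 0.36 within the arrays not re-dipped, and on 7 scans 0.11 and 0.35 with re-dipping and slide range as blocks. It ran from -0.16 to 0.082 with 1 scan left out and from -0.13 to 0.11 with 2. Apaf1 (-0.002) had 0.043 with median scaling, 0.35 with slide range as a block, 0.31 in the matrix, 0.41 with the authors' arrays, 0.71 within the arrays not re-dipped, 0.28 and 0.61 on 7 scans with those blocks, and 0.25 when not-found spots were missing, and ran from -0.18 to 0.31 and from 0.077 to 0.56. Ei24 had -0.19 with the replicate block, -0.085 with re-dipping blocked and -0.54 in the re-dipped arrays alone, where the low-signal scan is 1 of 2 PhIP arrays, and Zmat3 had -0.27, -0.10 and -0.71. With 1 scan left out they ran from -0.053 to 0.47 and from -0.063 to 0.55, and with 2 from 0.43 to 0.51 and from 0.44 to 0.73. The low signal of the scan of PhIP mouse 1 limits what can be said of 5 members it did not find.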
